A study of Sus scrofa with 36 samples.

Results

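The genes described here encode the synaptic vesicle, its release machinery and the scaffold of the synapse, and they were read from cerebellum RNA sequencing of 36 piglets. The list holds 38 genes named for their known roles, and it was chosen with earlier results of these data known. Of these, 31 were matched to a pig gene identifier by symbol, and all 31 passed the filter on low counts among 15356 genes tested of 31907 identifiers. VAMP1, PCLO, UNC13A, NRXN2, NLGN2, SHANK1 and SHANK3 were not matched and were not analysed here.

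The piglets were term-born crossbred pigs of both sexes from one farm. They entered the study at 3 days of age, either with normal birth weight (NBW) or intrauterine growth restricted (IUGR), the latter picked at birth for low weight and altered head shape. For 3 weeks they received a formula with fat from vegetable oil (VEG) or from bovine milk (MILK), which gave 4 groups of 9 piglets: VEG-NBW and VEG-IUGR on one fat, MILK-NBW and MILK-IUGR on the other. All piglets were formula fed, so the groups hold no sow-reared reference. Piglets came from several litters, and litter is not in the labels.

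A presynaptic terminal stores transmitter in vesicles, which SNARE proteins (syntaxin, SNAP25 and VAMP) fuse with the membrane when calcium binds synaptotagmin, while complexins clamp and prime the complex. Bassoon and RIM organise the active zone where fusion takes place. Neurexins on the axon bind neuroligins on the dendrite, and scaffold proteins such as PSD-95 (encoded by DLG4), SHANK, HOMER and gephyrin hold receptors opposite the release site. In the cerebellum, granule cells supply the most abundant excitatory synapses, onto Purkinje cells, and load their vesicles mainly with the glutamate transporter encoded by SLC17A7.

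Of the 36 libraries, 3 stood apart from their groups by their unassigned reads, counting every class of read that was given to no single gene: piglet 202 of VEG-NBW with 43.6%, piglet 210 of VEG-IUGR with 64.3% and piglet 213 of MILK-NBW with 31.5%, against 26.7 to 30.5% in the other 33. In reads that overlapped no annotated feature alone, piglet 213 with 12.1% did not stand apart, as piglet 215 of the 33 had 12.5%. The values below are over these 33 libraries (8, 8, 8 and 9 piglets of VEG-NBW, VEG-IUGR, MILK-NBW, MILK-IUGR, in that order), with total counts on genes of 15516541 to 23027502, and results that rest on the choice are also given over all 36. The study left out 1 library of low RNA integrity in each of the same 3 groups without naming it. The members took 0.82 to 1.18% of the counts in the 33 libraries and 0.641% and 0.424% in piglets 202 and 210, below that range, while piglet 213 with 0.944% lay within it. In piglet 210, 24 of the 31 members lay below all 33 libraries and 7 had no count. In piglet 202, 20 lay below and in piglet 213, 12. Above all 33 lay 2 members in piglet 210, 0 in piglet 202 and 3 in piglet 213. In piglets 202 and 210 a high share of unassigned reads went with a low share on the members, and its part in any difference that includes these libraries was not tested. The tissue label was met by its markers: 10 of 10 granule neuron markers and 7 of 8 Purkinje cell markers were matched and had counts in every library, with summed counts-per-million (CPM) levels of 3479 to 5940 and 2398 to 5122, while the posterior hindbrain genes HOXA5 and HOXB5 were at 0 in all 33 libraries. In a bulk tissue sample, fewer cells of a type and less RNA per cell cannot be told apart.

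Levels of most members were close to each other in the 4 groups. CPM values are scaled by TMM, a size correction between libraries, and are compared between piglets and not between genes, since no transcript lengths were used. SYP (synaptophysin, a membrane protein of the vesicle) had medians of 950, 902, 964 and 1004 CPM in the groups in that same order, within a range of 730 to 1246 CPM over all 33 piglets. SNAP25, a SNARE of the plasma membrane, had medians of 2025, 1990, 2075 and 2032 CPM within a range of 1566 to 2721 CPM. The 4 groups overlapped in both genes. SLC17A7 had medians of 512, 522, 532 and 511 CPM, with 371 to 667 CPM over all piglets. DLG4 had medians of 336, 348, 374 and 328 CPM, with 253 to 405 CPM over all piglets.

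**Figure D1:**
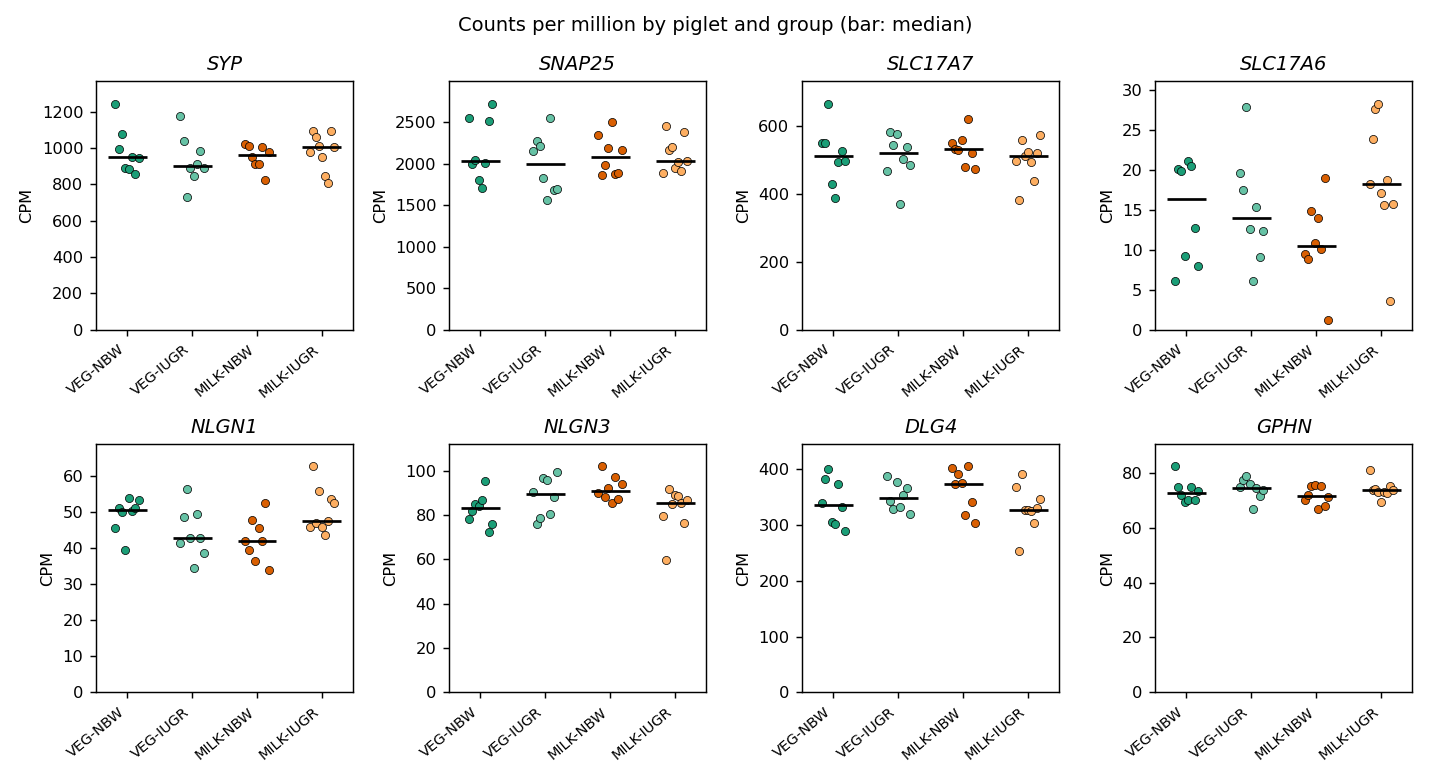
CPM (vertical axis, TMM-scaled, from 0) of 8 members in each of 33 piglets, by group, with a bar at the group median. SYP, SNAP25, SLC17A7, DLG4 and GPHN lie at like levels in the 4 groups, whereas SLC17A6 runs from 1.22 to 28.3 CPM.

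The spread between piglets was close to that of genes in general. The coefficient of variation over the 33 piglets had a median of 14.0% over the members, beside 14.3% over all genes tested, and 17 of 31 members lay below that value. GPHN, which encodes the scaffold of inhibitory synapses gephyrin, was the steadiest member with a coefficient of variation of 4.9% and a range of 66.8 to 82.4 CPM. SV2A, a vesicle glycoprotein, varied by 8.71% and RAB3A, a vesicle GTPase, by 8.83%. At the other end stood SLC17A6, the second vesicular glutamate transporter, which in the cerebellum is known from neurons of the deep nuclei, among other cells. Its coefficient of variation was 45.6% and its highest value was 23.1 times the lowest, whereas this ratio was at most 3.83 (BSN, the active zone protein bassoon) in the other 30 members. Both ratios rest on 1 library: without piglet 234 that of SLC17A6 was 8.03, and without piglet 207 that of BSN was 2.11.

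The diet comparison asks whether milk fat in place of vegetable oil changed the genes by an amount common to both birth weights. Opposite changes in NBW and IUGR piglets can cancel in it. No member passed the test (edgeR quasi-likelihood test, Benjamini-Hochberg adjusted p under 0.05), and 0 of 31 had an unadjusted p under 0.05. Over all genes tested 0% were called and 4.26% had an unadjusted p under 0.05. The log2 fold changes (MILK minus VEG) ran from -0.06 to 0.11 with a median of 0.02, and 21 of 31 were above 0, beside a median of -0.003 and 48.0% above 0 over all genes. DESeq2 and limma voom did not call a member in this or any other of the 8 comparisons either. The largest value was that of CPLX2, a complexin, at 0.11 ± 0.09 (SE, adjusted p = 0.985). SYT7, a synaptotagmin with high calcium affinity, had 0.11 ± 0.10. By role, 6 of 9 vesicle genes, 6 of 8 fusion genes, 1 of 2 active zone genes, 1 of 3 adhesion genes, 5 of 6 postsynaptic scaffold genes and 2 of 3 calcium/calmodulin kinase genes were above 0.

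How large a common diet difference the data leave room for can be read from the intervals. The fold bounds used for this were set after the data were seen. For 30 of the 31 members the whole 95% interval of the diet difference lay inside 1.3-fold in either direction, beside 78.2% of all genes tested. SYP differed by 0.02 with an interval of -0.10 to 0.14, SV2A by -0.003 with -0.09 to 0.09, and GPHN by -0.02 with -0.08 to 0.04. SLC17A6 was the exception, with -0.02 and an interval of -0.53 to 0.48. Inside 1.2-fold lay 27 members, beside 63.9% of all genes. These counts depend on the libraries left out. With all 36 libraries 12 of 31 intervals lay inside 1.3-fold and 5 inside 1.2-fold, and without piglet 210 only, 30 and 19 did.

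The birth weight comparison asks the same of growth restriction, as a difference common to both diets. Again 0 of 31 members passed the test and 0 had an unadjusted p under 0.05, beside 0% and 2.19% of all genes. The log2 fold changes (IUGR minus NBW) had a median of -0.03, and 8 of 31 were above 0, beside a median of -0.001 and 49.7% above 0 over all genes. The sign of the median depends on the libraries, as it was 0.04 without piglet 210 only and -0.02 with all 36. All 3 calcium/calmodulin kinase genes had values below 0: CAMK2A -0.03, CAMK2B -0.08 and CAMK4 -0.09, each with an interval that spanned 0. CPLX1, the complexin with the lowest value, had -0.13 ± 0.09 (SE) and SYN1, a synapsin that tethers vesicles, -0.11 ± 0.09. Piglet 207 of MILK-IUGR was the lowest of all 33 in CAMK2A, CAMK2B, CPLX1 and SYN1, though not in CAMK4. With piglet 207 also left out, the median over the members was -0.025. SLC17A6 had the largest value, 0.43 ± 0.25, with an interval of -0.08 to 0.94. The intervals of the other 30 members lay inside 1.3-fold, beside 78.9% of all genes, and those of 26 inside 1.2-fold, beside 65.6%. With all 36 libraries 17 and 7 members' intervals did, and without piglet 210 only, 29 and 19. With piglet 207 left out beside the other 3, 30 and 28 did, SYN1 among the 28.

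**Figure D2:**
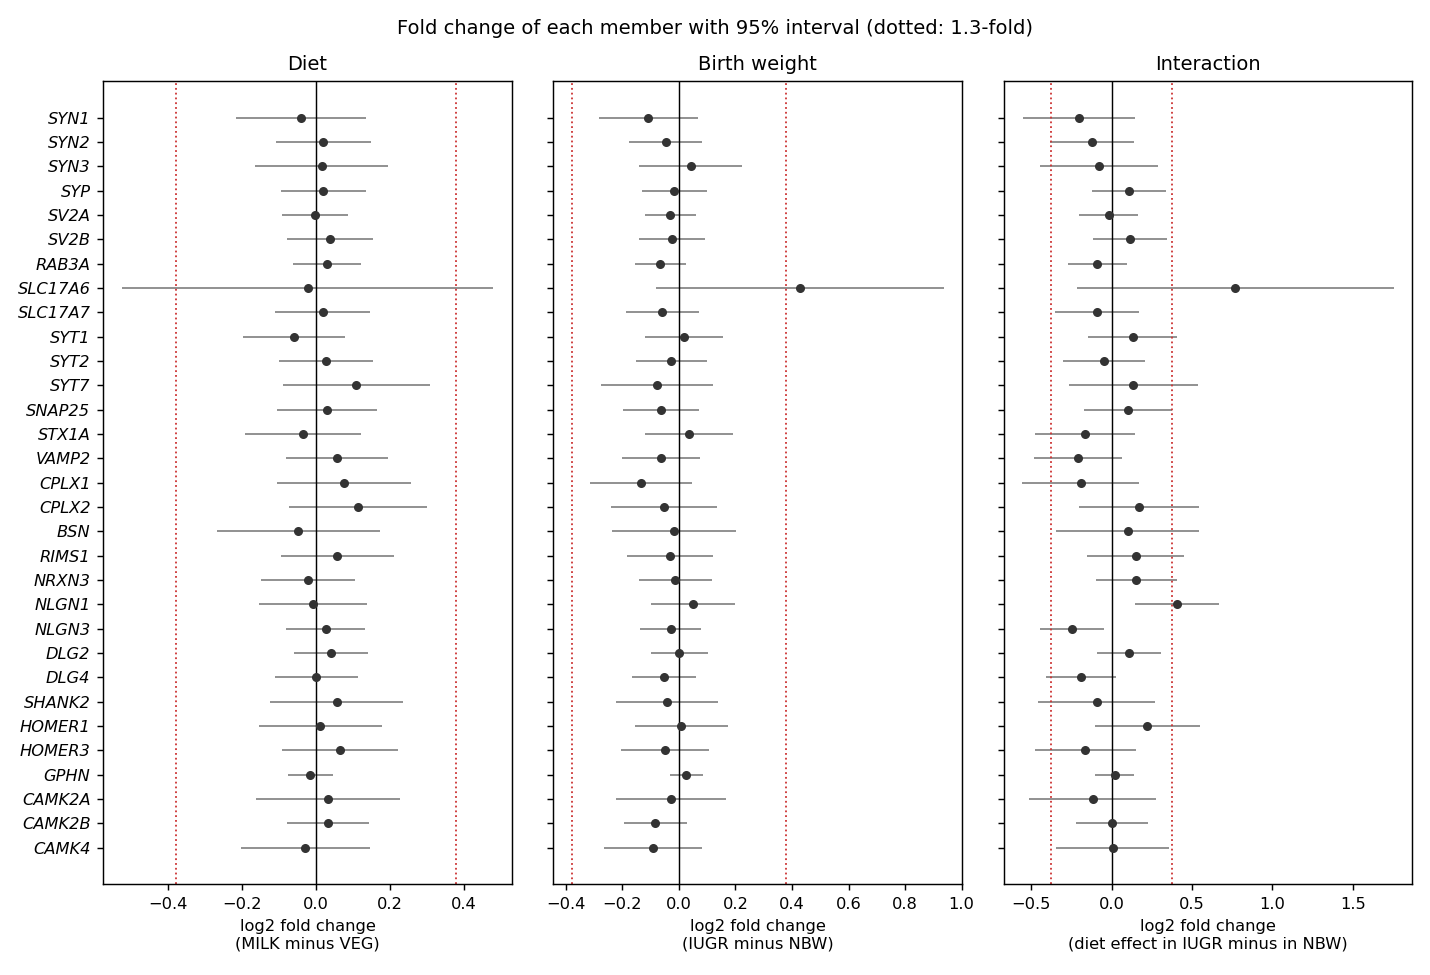
Log2 fold change (horizontal axis, with 95% interval) of each of 31 members for diet (MILK minus VEG), birth weight (IUGR minus NBW) and their interaction, over 33 piglets. In the first 2 panels every interval but that of SLC17A6 lies between the dotted lines at 1.3-fold, and in the third those of NLGN1 and NLGN3 lie to either side of 0.

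The interaction tests whether the diet difference depends on birth weight. No member passed the test, and 2 of 31 had an unadjusted p under 0.05, beside 0% and 6.09% of all genes, so the share is close to the background. These 2 were both neuroligins, the dendritic partners of neurexins. NLGN1, which is typical of excitatory synapses, lies at 13:111851007-112727202 of build Sscrofa11.1. Its lowest, median and highest levels were 39.5, 50.6 and 53.9 CPM in VEG-NBW, 34.3, 42.7 and 56.3 CPM in VEG-IUGR, 33.9, 41.8 and 52.3 CPM in MILK-NBW and 43.4, 47.5 and 62.6 CPM in MILK-IUGR. The medians were higher in VEG-NBW and MILK-IUGR than in the other 2 groups, and all 4 groups overlapped. The interaction of NLGN1 was 0.41 ± 0.13 (SE) on the log2 scale with an interval of 0.14 to 0.67 (edgeR, adjusted p = 0.784). NLGN3, which is found at excitatory and inhibitory synapses and lies at X:57174506-57204770, had 72.2, 83.0 and 95.2 CPM in VEG-NBW, 75.7, 89.2 and 99.3 CPM in VEG-IUGR, 85.4, 90.9 and 101.9 CPM in MILK-NBW and 59.9, 85.2 and 91.8 CPM in MILK-IUGR. Its order was the opposite one, with an interaction of -0.25 ± 0.10 (interval -0.45 to -0.05, edgeR, adjusted p = 0.784). These 2 genes were picked out by their p in this comparison, so the opposite signs are a description. Intervals of the interaction were wider than those of diet or birth weight. Of the 31 members 11 lay inside 1.3-fold and 3 inside 1.2-fold, beside 42.0% and 16.6% of all genes. With all 36 libraries 0 lay inside 1.3-fold.

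Within single groups, the same 2 genes came up again, as the contrasts share these piglets. In MILK-NBW against VEG-NBW, 2 of 31 members had an unadjusted p under 0.05, beside 6.67% of all genes: NLGN1 with -0.22 ± 0.09 (SE) and NLGN3 with 0.15 ± 0.07. In MILK-IUGR against VEG-IUGR it was 1 of 31, NLGN1 with 0.19 ± 0.09, beside 3.9% of all genes. In VEG-IUGR against VEG-NBW it was 0 of 31, beside 2.29%. In MILK-IUGR against MILK-NBW it was 3 of 31, beside 6.24%: NLGN1 with 0.25 ± 0.09, SLC17A6 with 0.81 ± 0.34 and NLGN3 with -0.15 ± 0.07. None passed the adjusted threshold, and over all genes 0% did in each of these 4 contrasts. By a two-sided exact permutation test on log2 CPM, NLGN3 in MILK-NBW against VEG-NBW had p = 0.00901 and the MILK-NBW piglet was the higher one in 89.1% of the pairs. NLGN1 in MILK-IUGR against MILK-NBW had an exact p of 0.0130 with 84.7% of the pairs higher. Without piglet 207, the latter was 0.0249. NLGN3 in the same contrast differed by -0.16 on the log2 CPM scale (exact p = 0.0155), which shrank to -0.11 (exact p = 0.0230) without piglet 207. These members were named for their small p, so the exact tests describe them further and are no separate evidence. The edgeR adjusted p over all genes was 0.721 or higher for NLGN1, NLGN3 and SLC17A6 in every one of these contrasts. In each contrast 27 of 31 intervals lay inside 1.3-fold, beside 62.4 to 66.3% of all genes. Inside 1.2-fold lay 12 to 16, beside 39.8 to 46.3%. With all 36 libraries 6 or 7 lay inside 1.3-fold. NLGN1 was outside 1.3-fold in MILK-NBW against VEG-NBW, though inside it in the diet comparison.

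SLC17A6 lies at 2:37098983-37138935 and had few counts, 20 to 589 per library. Its lowest, median and highest levels were 6.07, 16.3 and 21.1 CPM in VEG-NBW, 6.14, 14.0 and 27.9 CPM in VEG-IUGR, 1.22, 10.5 and 19.1 CPM in MILK-NBW and 3.53, 18.3 and 28.3 CPM in MILK-IUGR. The lowest values of the last 2 groups belonged to piglets 234 and 233, well below the 8.83 and 15.7 CPM of the next piglets. The exact permutation p of MILK-IUGR against MILK-NBW was 0.104, 0.231 without piglet 234 and 0.00155 without piglet 233, so that 1 library decides on which side of 0.05 it falls. Both piglets had the highest summed level of the 7 Purkinje cell markers in their groups, 5122 and 4406 CPM beside group medians of 3208 and 3255 CPM. Piglet 200 of VEG-NBW, with a sum of 4825 CPM, had 6.07 CPM of SLC17A6. Piglets 235 of MILK-IUGR and 201 of VEG-IUGR, with 4166 and 4160 CPM, had 15.8 and 19.6 CPM. Piglet 234 also had the lowest granule neuron sum of all 33 (3479 CPM). Its interneuron, endothelium and meningeal fibroblast sums were the highest (1119, 240.8 and 953.4 CPM). The part of tissue make-up in the SLC17A6 levels was not tested.

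Ratios of paired genes within a piglet do not depend on library scaling. SLC17A7 to SLC17A6, SYT2 to SYT1 (fast synaptotagmins), CPLX1 to CPLX2, CAMK2A to CAMK2B (subunits of calcium/calmodulin kinase II) and HOMER3 to HOMER1 were each compared in the 4 contrasts between groups. None of the 20 exact permutation tests passed an adjusted p of 0.05, and the lowest was 0.480. The largest difference was that of SLC17A7 to SLC17A6, which in MILK-IUGR was 0.97 lower than in MILK-NBW on the log2 scale (exact p = 0.0720). CPLX1 to CPLX2 was 0.25 lower in the same contrast (exact p = 0.0678).

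Sex was compared over the 4 groups, as 16 of the 33 piglets were female and 17 male. No member was called, although the sexes differed elsewhere, since 0.163% of all genes were called and 2.94% had an unadjusted p under 0.05. SYN1, SYP and NLGN3 lie on the X chromosome and differed by -0.07, -0.05 and 0.04 (male minus female, log2), with intervals that spanned 0. The smallest p was that of SV2A at -0.08 ± 0.04 (SE), followed by SNAP25 at -0.12 ± 0.07. Of the 31 members, 11 were above 0, beside 55.5% of all genes, and their median was -0.04, but 0.02 with all 36 libraries. For 30 of them the interval lay inside 1.3-fold, beside 78.3% of all genes, and for 18 with all 36 libraries.

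The mean level of the members in each piglet was taken as the mean of log2 CPM after each gene was standardised over the 33 piglets. It had a lowest, median and highest value of -0.87, 0.17 and 0.77 in VEG-NBW, -0.90, -0.09 and 0.50 in VEG-IUGR, -0.18, 0.04 and 0.48 in MILK-NBW and -1.33, 0.02 and 0.64 in MILK-IUGR. The groups overlapped, and MILK-NBW spanned the smallest range. Single piglets stood out more than groups did. Piglet 207 of MILK-IUGR had the lowest mean, and 14 members were lowest of all 33 in it, among them SYN1, SYN2 and SYN3, VAMP2, BSN, DLG4, SHANK2, CAMK2A and CAMK2B. SYN1 was 62.9 CPM in piglet 207 and 135 to 171 CPM in the rest of its group. BSN was 83.8 CPM against 201 to 273 CPM, and SHANK2 62.7 CPM against 130 to 183 CPM. The low values did not extend to all members, since NLGN1 was highest of all 33 in this piglet and SNAP25, with 2451 CPM, highest of its group. Markers of other cell types moved as well in this piglet: the summed level of 6 oligodendrocyte markers was 32770 CPM and that of 7 astrocyte and Bergmann glia markers 11000 CPM, beside medians of 19510 and 7565 CPM over the 33 piglets. High sums were not particular to piglet 207. They were 31470 and 11450 CPM in piglet 226 of its group and 48830 and 9689 CPM in piglet 227 of VEG-IUGR. No member was lowest of all 33 in piglet 226 or 227. In piglet 207 the 10 granule neuron markers summed to 4388 CPM beside a median of 4628 CPM, and 5 granule progenitor markers to 109.9 CPM, the lowest of all 33. In piglet 211 of VEG-IUGR another 10 members were lowest of all 33, among them SNAP25, SYT1, SLC17A7, RIMS1, NRXN3 and HOMER1. Its granule neuron markers summed to 3579 CPM, the second lowest of all 33, its oligodendrocyte markers to 28920 CPM and its astrocyte and Bergmann glia markers to 10830 CPM, and 3 red blood cell markers to 62.0 CPM, the highest. All these markers had counts in both piglets, and their part in the low levels was not tested. Over all 36 libraries the lowest means were -3.76 in piglet 210, -1.43 in piglet 202 and -0.46 in piglet 213.

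**Figure D3:**
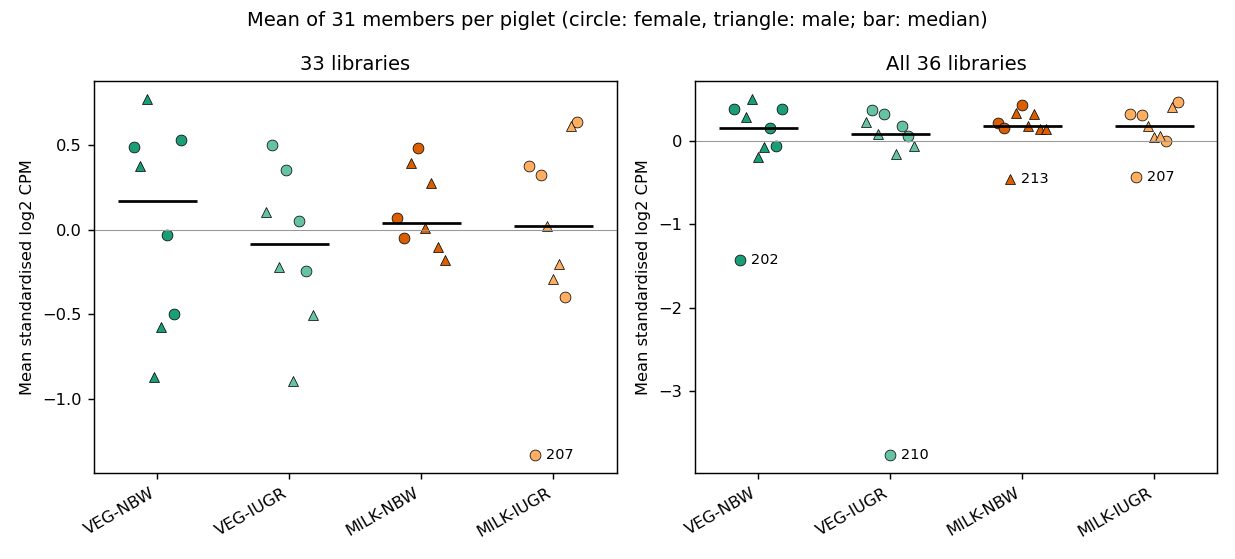
Mean of standardised log2 CPM over 31 members (vertical axis) per piglet and group, over 33 libraries (left) and all 36 (right), with females as circles, males as triangles and a bar at the median. The groups overlap on the left, with piglet 207 lowest at -1.33, and on the right piglet 210 lies at -3.76.

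Members varied together across piglets more than genes in general. Over the 465 pairs the median Pearson correlation of log2 CPM was 0.249, 73.3% were above 0 and 26.5% exceeded 0.5 in size, beside -0.002, 49.7% and 5.46% over pairs of all genes tested. Pairs share libraries and genes and are not independent, so these are descriptions. The pairs of all genes were not matched to the members by count level or cell type. Cell type markers also varied, with oligodendrocyte sums of 8707 to 48830 CPM, and the part of tissue make-up was not tested. Without piglet 207 the median was 0.235 and 27.1% exceeded 0.5 in size. NRXN3, a neurexin, had the highest median correlation with the other members (0.447), and HOMER3, a scaffold of Purkinje cell spines, the lowest (-0.107), followed by SLC17A6 (-0.02). The highest pair was SYT2 and SHANK2 (r = 0.854, rho = 0.742), which fell to 0.652 without the 2 piglets farthest from the median of SYT2. SYT1 and NRXN3 had r = 0.825 and rho = 0.778, and 0.779 without the 2 farthest. VAMP2 and DLG4 had r = 0.817, rho = 0.741 and 0.722. These pairs were named after their values were seen.

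**Figure D4:**
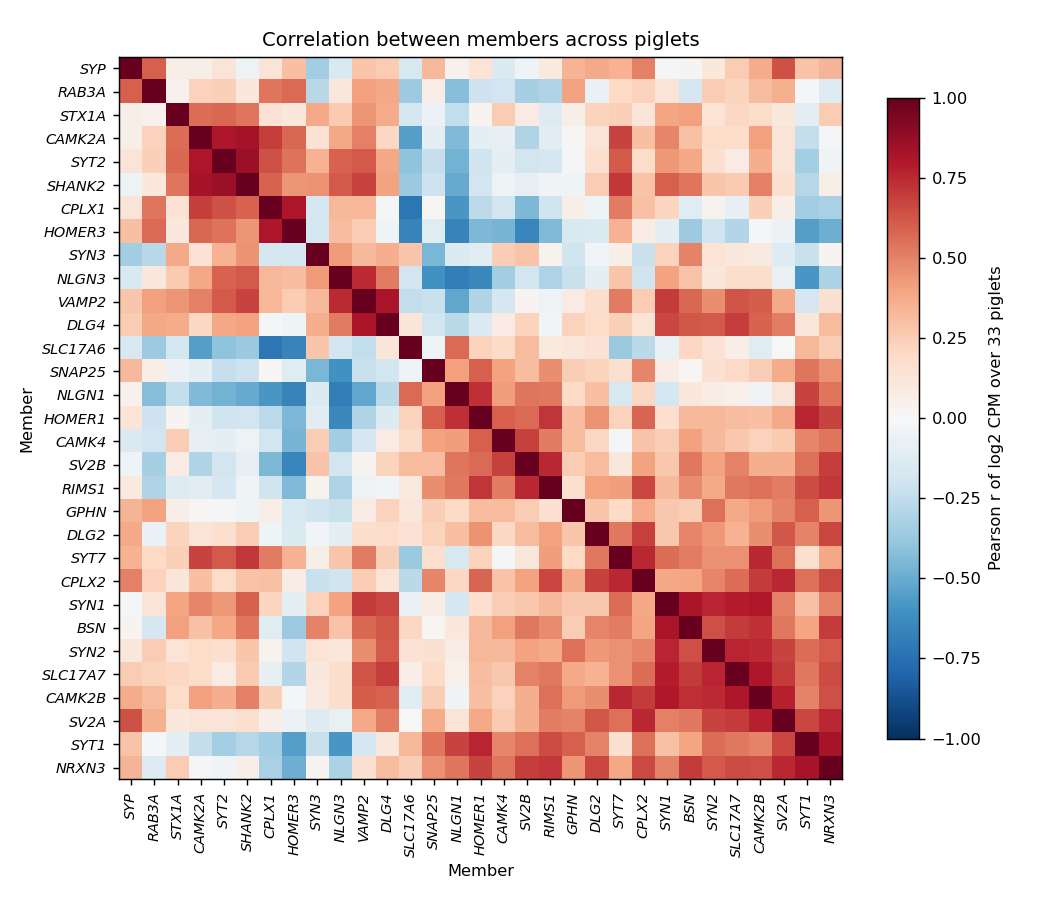
Pearson correlation of log2 CPM over 33 piglets between 31 members (both axes, ordered by average linkage), from -1 in blue to 1 in red. A block with SYN1, BSN, SLC17A7 and CAMK2B and one with SYT2, SHANK2 and CAMK2A are red, and HOMER3 and SLC17A6 hold many blue cells.

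Some members ran against each other. NLGN1 and NLGN3 had r = -0.695 (permutation p = 2e-05, adjusted over 465 pairs p = 0.000216) and rho = -0.685 (permutation p = 2e-05, adjusted p = 0.000332). Without the 2 piglets farthest in NLGN1 r was -0.690, and after group and sex were removed it was -0.607. SLC17A6 and CPLX1 had r = -0.722 (permutation p = 1e-05, the smallest the permutations can give, adjusted p = 0.000133) and rho = -0.611 (permutation p = 0.00015, adjusted p = 0.00139), with -0.573 without the 2 farthest piglets. Of the 5 pairs of related genes listed for comparison, HOMER1 and HOMER3 ran in opposite directions with r = -0.448 (permutation p = 0.00922, adjusted over 5 pairs p = 0.0461) and rho = -0.462 (adjusted p = 0.0377), and r was -0.437 without the 2 farthest, but 0.941 over all 36 libraries. CAMK2A and CAMK2B had r = 0.412 (adjusted p = 0.0471) and rho = 0.269 (adjusted p = 0.183), with r = 0.188 without the 2 farthest, so that this relation rests on them. SYT1 and SYT2, CPLX1 and CPLX2, and SLC17A6 and SLC17A7 had r = -0.342, 0.290 and 0.067, none past an adjusted p of 0.05. The negative correlation of NLGN1 with NLGN3 does not hold over all 36 libraries, where r was 0.787. Over these 36 the mean standardised level in piglet 210 was -5.48 for the adhesion genes and -5.23 for the postsynaptic scaffold genes. The lowest such means in the groups other than VEG-IUGR were -0.524 and -0.839. The part of piglet 210 alone in these correlations was not tested.

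**Figure D5:**
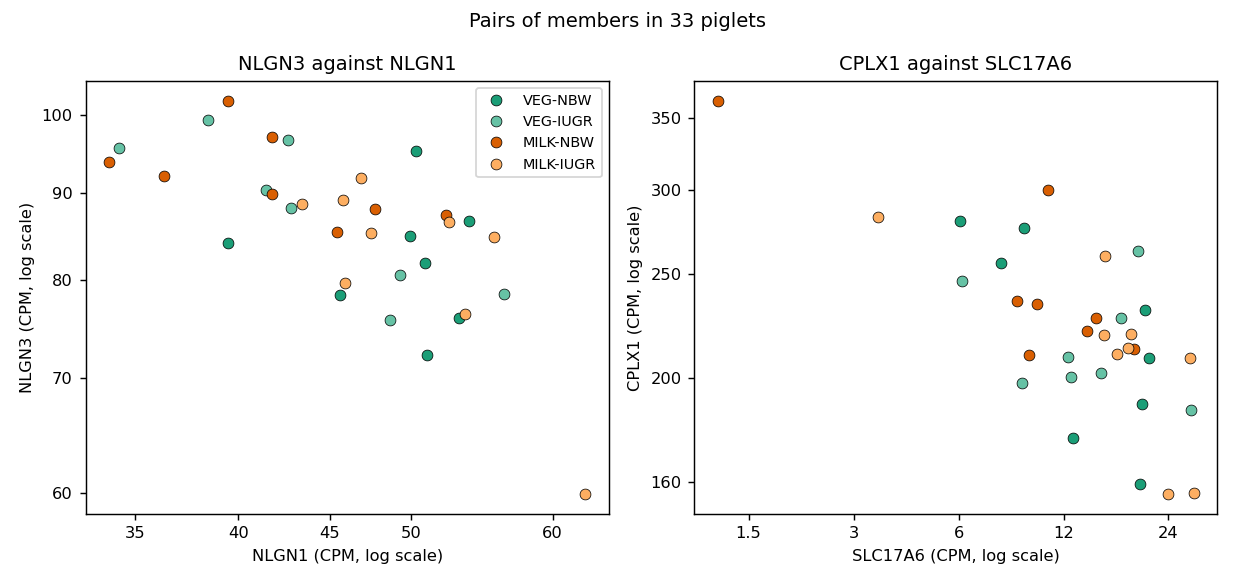
Level of NLGN3 against NLGN1 (left) and of CPLX1 against SLC17A6 (right) in 33 piglets, in CPM on log axes, coloured by group. Both pairs run downwards, with r of -0.695 and -0.722, and piglet 234 of MILK-NBW is the point at 1.22 CPM of SLC17A6.

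The wider synapse was also read, from a list of 114 other genes of vesicles, fusion, endocytosis, the active zone, adhesion, scaffolds and calcium signalling, of which 111 were matched and 107 tested. None was called in any of the 8 comparisons. The number with an unadjusted p under 0.05 was 4 of 107 in the diet comparison, 3 by birth weight and 4 in the interaction, where all genes gave 4.26%, 2.19% and 6.09%, so the shares are near or below the background. The 4 of the diet comparison were NAPB, a SNARE recycling factor, 0.10, the adhesion genes TENM4 0.28 and LRRTM4 0.18, and the vesicle gene SV2C 0.27. For birth weight LRRTM1, a partner of neurexins, had 0.23, and SYT3 -0.17 and LRFN5 -0.22. These genes were named after their values were seen.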

How the data were processed

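The authors deposited, for each of 36 piglets, raw counts of reads per Ensembl pig gene, without normalization, with 5 closing lines for reads not assigned to a gene. These lines were left out of library sizes and tests. The submitters' processing notes name Trim Galore, HISAT2, HTSeq and DESeq2 and build Sscrofa11.1; their settings, the annotation release and the use of strand are not given in the sources used here, so reads of overlapping genes on opposite strands cannot be told apart. Of 31907 identifiers, 15029 had a symbol in a table of pig gene names, and coordinates are those of RefSeq for the same build. Groups and sex came from the labels. The paper's litter effect was not fitted, as litter is not in the labels. Each piglet is a separate animal.

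The main test was the quasi-likelihood F test of edgeR 4.0.16, run in R 4.3.3 on TMM-scaled libraries after filterByExpr (minimum count 10). Sex entered every model, and p-values were adjusted by Benjamini-Hochberg over all 15356 genes. Diet and birth weight were fitted without their interaction, and the interaction, 4 contrasts and sex in a model of group means. The 33 libraries leave out, in each of the groups from which the study dropped 1 library, the one whose share of unassigned reads stood apart by Dixon's rule. They are matched to the study's set and not named by it. Alternatives were all 36, 35 or 32 libraries, DESeq2 1.42.0 and its size factors, limma 3.58.1 voom with quality weights, no sex term, other filters on low counts, only the 2 groups compared, and averages over the other factor. For single genes, exact permutation was used on log2 CPM, to which a prior count of 2 was added. Ratios were taken between raw counts and tested by exact permutation, with 0.5 added to each count over all 36 libraries only. Correlations were tested with 100000 permutations (Python 3.11.15, scipy 1.17.1). The fit was tested on simulated data. Named members were the 2 with the smallest p in each comparison, followed by their fold changes, and the genes of the ratios, followed by the ratios. The members, the other gene lists and the set of 33 libraries were chosen with earlier results of these data known. Leaving out single piglets, the extreme correlations and the fold bounds for intervals were set after the data were seen, the 1.3-fold bound in place of a slightly narrower one read first.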

Additional observations from a re-analysis of the deposited data

Results flagged for a closer look

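Within each group, the highest and the lowest piglet of every member and of the mean levels by role were compared with the rest. Of 152 groups of values, 17 held a piglet whose gap to the next one took more of the group's range than Dixon's 95% value allows, where chance alone gives about 1 in 20. Piglet 207 of MILK-IUGR accounts for 9 of them, all low: SYN1 with 62.9 CPM, SYT2 with 142.4 CPM, SYT7 with 90.2 CPM, VAMP2 with 153 CPM, BSN with 83.8 CPM, NLGN3 with 59.9 CPM, SHANK2 with 62.7 CPM, CAMK2B with 192 CPM and the mean level of the active zone genes with -1.89. These values share 1 library and are not independent. Without piglet 207 no member was called either.

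Piglet 234 of MILK-NBW was low in SLC17A6 with 1.22 CPM and in BSN with 152 CPM, and high in HOMER3 with 220.5 CPM. SLC17A6 was also low in piglet 233 of MILK-IUGR with 3.53 CPM. The other flags were high values: RAB3A in piglet 201 of VEG-IUGR with 499 CPM, GPHN in piglet 200 of VEG-NBW with 82.4 CPM and in piglet 206 of MILK-IUGR with 81.2 CPM, and the mean level of the calcium/calmodulin kinase genes in piglet 219 of MILK-NBW with 1.11.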

How the results depend on the processing

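No member was called in any of the 77 alternative fits, and the 16 fold changes of the 2 members with the smallest p in each comparison kept their sign under each alternative but SV2A for sex, which was 0.0147 over all 36 libraries. The interaction of NLGN1 ran from 0.37 to 0.64 (adjusted p 0.684 to 0.998) and that of NLGN3 from -0.25 to -0.12. Over all 36 libraries the median of all genes shifted to 0.138 for the interaction, 0.127 for MILK-IUGR against VEG-IUGR and -0.117 for VEG-IUGR against VEG-NBW. There the log2 ratio of SLC17A7 to SLC17A6 was 0.57 in VEG-IUGR against VEG-NBW, HOMER3 to HOMER1 was 0.125 in MILK-IUGR against VEG-IUGR, and CAMK2A to CAMK2B was -0.0249, 0.931, -0.873 and 0.0829 in MILK-NBW against VEG-NBW, MILK-IUGR against VEG-IUGR, VEG-IUGR against VEG-NBW and MILK-IUGR against MILK-NBW, all of opposite sign to the 33 libraries. Correlations turned likewise: HOMER1 with HOMER3 0.941, NLGN1 with NLGN3 0.787, NLGN1 with HOMER3 0.946, SLC17A6 with HOMER3 0.734, SV2B with HOMER3 0.914, NLGN3 with HOMER1 0.769, SYT2 with CAMK2A -0.0312 and SYN1 with BSN -0.339. The construction adds piglets 202, 210 and 213, in which 20, 24 and 12 members lay below all 33 libraries and 0, 2 and 3 above. In piglet 213 the share of counts on the members, 0.944%, was within the range of the 33. The cause was not tested further. Genes called for sex numbered 25, and 7 with at least 10 counts in every library. For MILK-NBW against VEG-NBW 0 genes were called, but 2 by DESeq2, 1 by limma and 1 over 32 libraries. For MILK-IUGR against MILK-NBW it was 0, but 1 by DESeq2, limma, DESeq2 size factors in edgeR, no sex term, 10 counts in every library or 32 libraries. The number of members with an unadjusted p under 0.05 moved by over 1.5 times in 15 alternative fits. The ratio of VAMP1 to VAMP2 was not run, as VAMP1 was not matched. No paired analysis was possible because the piglet numbers do not pair animals across groups. With 20 counts in one library, SLC17A6 is the member that depth limits most.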
